A study of Homo sapiens with 6 samples.

Results

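The snoRNA host genes described here are 10 of the 58302 genes in each of the authors' deposited tables: SNHG1, SNHG3, SNHG5, SNHG6, SNHG7, SNHG8, SNHG12, SNHG15, GAS5 and ZFAS1. They were chosen by name, as spliced non-coding RNAs that carry small nucleolar RNAs (snoRNAs) in their introns, and all 10 names were found in both tables. RNA had been pulled down from HepG2, a hepatocellular carcinoma cell line, and sequenced (RIP-seq). The 2 PABPC1 libraries came from HepG2 overexpressing PABPC1 and the 2 PABPC4 libraries from HepG2 overexpressing PABPC4, each pulled down with an antibody to that protein. The 2 control libraries were pulled down with rabbit IgG, 1 from each of these overexpressing populations, so no library of unmodified HepG2 is among the 6. Nothing in the labels says that replicates were separate cultures, and a p-value over libraries then reflects how much these particular libraries vary, possibly for technical reasons.

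snoRNAs guide the chemical modification of ribosomal RNA: box C/D snoRNAs direct ribose methylation and box H/ACA snoRNAs direct pseudouridylation, and a few act in rRNA cleavage instead. In host genes such as these, the snoRNAs are cut out of the introns while the exons are joined, capped and polyadenylated, and the spliced RNA can reach ribosomes and be destroyed by nonsense-mediated decay. Many of these genes start with a terminal oligopyrimidine (TOP) sequence, a C at the cap followed by an unbroken run of C and T, as ribosomal protein genes do. PABPC1 and PABPC4 are cytoplasmic proteins that bind the poly(A) tail.

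Start sites from the RefSeq promoter table (GRCh38.p14) are shown for 8 members, and not for SNHG6 and SNHG15. The TOP start is the feature these genes are said to share with ribosomal protein genes. Each line gives the gene's own strand, 20 bases before the annotated first base and 30 bases from it, and capitals mark the unbroken run of C and T that begins at a first base of C. The regions were chr11:62855856-62855905 (minus strand) for SNHG1, chr1:28505923-28505972 (plus) for SNHG3, chr6:85678704-85678753 (minus) for SNHG5 and chr9:136728155-136728204 (minus) for SNHG7. They were chr4:118278742-118278791 (plus) for SNHG8, chr1:28581844-28581893 (minus) for SNHG12, chr1:173869016-173869065 (minus) for GAS5 and chr20:49278622-49278671 (plus) for ZFAS1.
SNHG1: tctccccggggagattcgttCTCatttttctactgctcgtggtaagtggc
SNHG3: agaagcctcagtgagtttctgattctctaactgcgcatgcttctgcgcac
SNHG5: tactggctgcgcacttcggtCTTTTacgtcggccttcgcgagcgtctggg
SNHG7: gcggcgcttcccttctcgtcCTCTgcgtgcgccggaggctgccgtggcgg
SNHG8: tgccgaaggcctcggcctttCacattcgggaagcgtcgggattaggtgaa
SNHG12: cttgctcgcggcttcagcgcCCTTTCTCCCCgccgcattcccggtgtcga
GAS5: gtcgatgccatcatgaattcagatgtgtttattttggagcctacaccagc
ZFAS1: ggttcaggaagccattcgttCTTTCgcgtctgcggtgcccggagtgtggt
A first base of C with at least 3 further C or T, read on the gene's strand only, stood at the start of SNHG5, SNHG7, SNHG12 and ZFAS1, 4 of 8 members. SNHG12 had the longest run, of 11 bases. The same start was found in 48 of 78 ribosomal protein genes (61.5%), in 5 of 20 other non-coding snoRNA hosts (25%) and in 1914 of the 35116 promoters of the table (5.45%). For SNHG12 and ZFAS1 the table's first base lies inside the annotated gene span, so the annotated span begins upstream. SNHG1 begins with C and a shorter run, SNHG8 begins with C followed directly by A, and the annotated first bases of SNHG3 and GAS5 are purines. The match describes letters at annotated starts, and which start HepG2 cells used was not measured.

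The libraries were shallow, and this sets the precision of every value below. Reads recovered from the deposited values numbered 289217 and 277552 in the PABPC1 libraries, 850190 and 841327 in the PABPC4 libraries, and 133030 and 94235 in the IgG libraries; the larger library of each antibody is called A and the smaller B. Nuclear reads, here and below, are those of nuclear genes whose reads per library could be recovered. They made up 39.8% and 41.9% of the IgG libraries, 54.4% and 60.1% of the PABPC1 libraries, and 80.5% and 79.1% of the PABPC4 libraries. The hepatocyte markers summed to 3704 to 3871 CPM (reads per 1000000 reads of the library) in IgG, 6199 to 7019 with PABPC1 and 8439 to 9056 with PABPC4. Blood cell markers summed to 3661 to 3746 CPM in IgG, 1335 to 1452 with PABPC1 and 600.2 to 752.8 with PABPC4, and 4 of 8 were listed lower with PABPC1 and 6 of 8 with PABPC4 in each case by the authors' deposited table. Fibroblast markers went the same way, from 180.4 to 218 CPM in IgG to 14.26 to 24.7 with PABPC4, and none of the neuronal markers or of KRT5, KRT14 and SFTPC had an IgG read. The part of this make-up in the values below was not tested.

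Together the host genes held 63 and 65 reads in the PABPC1 libraries, 223 and 191 in the PABPC4 libraries, and 13 and 19 in the IgG libraries. These are 217.8 and 234.2 CPM with PABPC1, 262.3 and 227.0 CPM with PABPC4, and 97.7 and 201.6 CPM in IgG. All 4 RIP libraries lay above both IgG libraries, and the RIPs of the 2 proteins overlapped. As a ratio of CPM from summed reads, the host genes were 1.60-fold above IgG with PABPC1 (exact 95% counting interval 1.08 to 2.44) and 1.74-fold with PABPC4 (1.21 to 2.58). Against IgG library B alone these ratios were 1.12 and 1.21, and against IgG library A alone 2.31 and 2.5. The intervals here and below cover counting error only and leave out the spread between libraries. On the same scale the median gene with reads in all 3 groups stood at 1.23 with PABPC1 and 1.72 with PABPC4. Both values lie inside the intervals of the summed ratios. Per 1000000 nuclear reads the order changed: 400 and 390 with PABPC1, 326 and 287 with PABPC4, and 245 and 481 in IgG, so that both RIPs lay within the range of the IgG libraries.

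SNHG3 alone gave 43.0% of the host gene reads with PABPC1, 30.9% with PABPC4 and 37.5% in IgG. Without it the summed ratios were 1.46 for PABPC1 (0.883 to 2.54), whose interval includes 1, and 1.92 for PABPC4 (1.22 to 3.19). The ratios of the median gene, 1.23 and 1.72, lie inside these intervals too. SNHG15, which hosts SNORA9, had 0 reads in all 6 libraries and has no p-value in either table. A count of 0 allows up to 1.77 CPM over both PABPC4 libraries (3 reads), 5.29 CPM with PABPC1 and 13.2 CPM in IgG. SNHG15 enters no comparison, and 9 members remain.

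**Figure D1:**
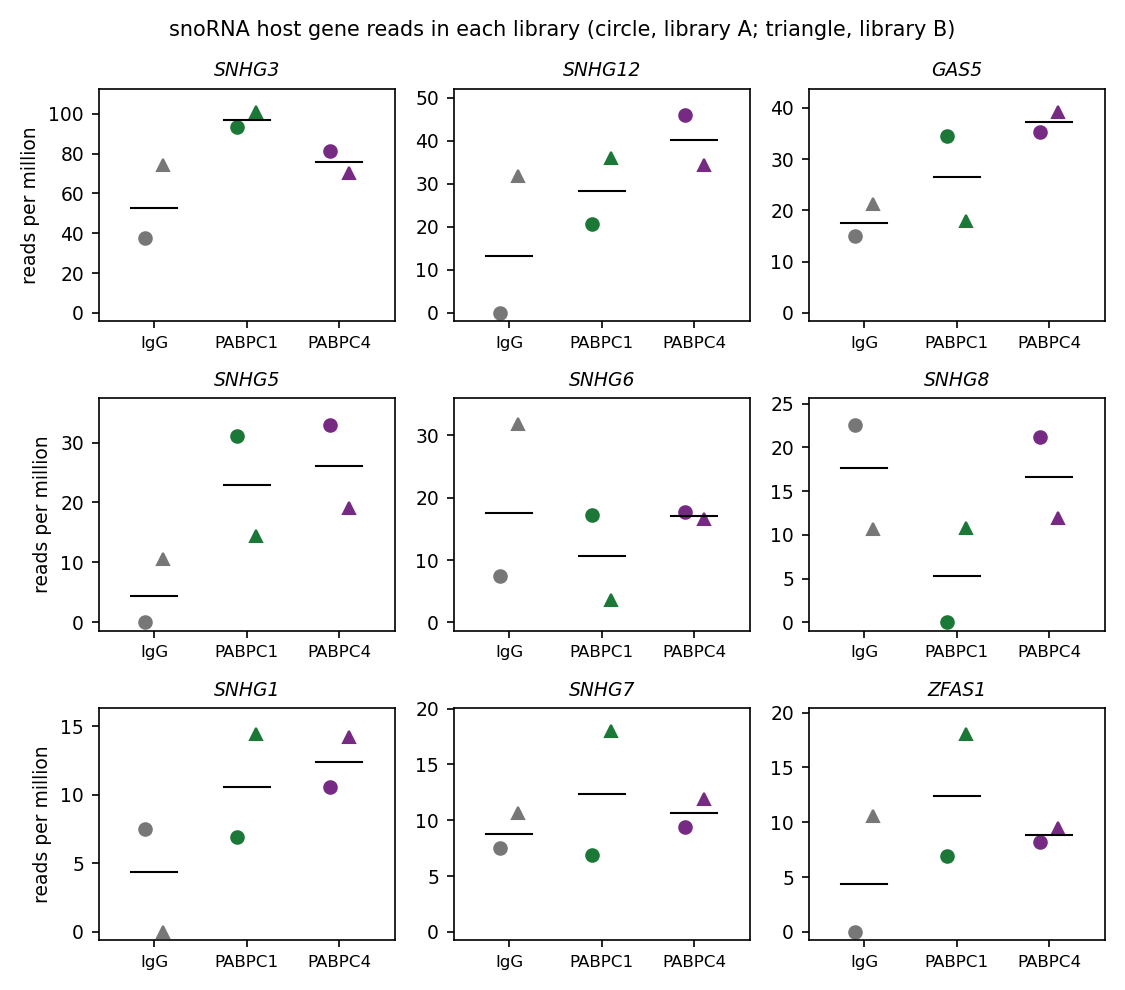
CPM in each library for the 9 host genes with a read, 1 panel a gene, ordered by total reads. Circles are library A, triangles library B and black bars the value of the summed reads; SNHG3 lies highest, and both PABPC1 libraries of SNHG3 stand above its other 4 libraries.

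The question of the first comparison was which of these RNAs came down with PABPC1 above the IgG level, and none was called. Of the 9 tested members, 0 passed in the authors' deposited table at an adjusted p under 0.05 in either direction, against 1.34% of 17565 genes listed higher and 0.194% listed lower. No member had an unadjusted p under 0.05 in the authors' deposited table. Fisher's exact test on the summed reads also called 0 members, against 310 genes higher and 34 lower of 17565. The limma voom fit on library reads, which could include 6 members, called 0 at an adjusted p under 0.05. At that threshold it called 0.54% of 7965 genes higher and 0.439% lower. In that fit 1 member, SNHG8, had an unadjusted p under 0.05. The share of all genes at an unadjusted p under 0.05 was not counted, here or below, so such counts have no background beside them. Of the 9 members, 7 had a PABPC1 ratio above 1, as did 6920 of the 10674 genes with reads in all 3 groups. Both PABPC1 libraries lay above both IgG libraries for 2 members, SNHG3 and SNHG5, and among the 11508 genes with an IgG read this held for 28.8%; the reverse order was seen in 0 members and 10.1% of those genes.

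The second comparison asked the same of PABPC4, and again none was called. Of 9 members, 0 passed in the authors' deposited table at an adjusted p under 0.05, against 5.54% of 21455 genes listed higher and 0.9% listed lower. No member had an unadjusted p under 0.05 in the authors' deposited table. Fisher's exact test called 0 members, against 1562 genes higher and 169 lower of 21455. At an adjusted p under 0.05 limma voom called 0 of 6 members, against 2.4% of genes higher and 1.64% lower. In that fit 0 members had an unadjusted p under 0.05. The ratio was above 1 in 7 members, the same 7 as with PABPC1, and in 8199 of the 10674 genes with reads in all 3 groups. Both PABPC4 libraries lay above both IgG libraries for 4 members, SNHG1, SNHG5, SNHG12 and GAS5, and this held for 49.6% of genes with an IgG read; the reverse order was seen in 0 members and 6.84% of genes. The 2 comparisons share the IgG libraries, so a high or low IgG count moves both.

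The IgG reads limited what could be called. All but SNHG3 had 1 to 4 IgG reads in the 2 libraries together. A gene with 1 IgG read, such as SNHG1, SNHG5 or ZFAS1, needed 38 PABPC1 reads (15.2-fold) or 88 PABPC4 reads (11.8-fold) to reach the largest p called in each table. SNHG3, with 12 IgG reads, needed 84 PABPC1 reads (2.81-fold) or 215 PABPC4 reads (2.41-fold), and had 55 and 128. With PABPC1 no member other than SNHG3 had enough IgG reads to be called lower, even at 0 RIP reads. Smaller differences than these were not detectable at this depth.

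Among the hosts of box H/ACA snoRNAs, SNHG3 was the most abundant. It carries SNORA73A and SNORA73B, which act in rRNA processing, and spans chr1:28505943-28510892 on the plus strand. It had 27 and 28 reads with PABPC1, 69 and 59 with PABPC4, and 5 and 7 in IgG. These are 93.4 and 100.9 CPM, 81.2 and 70.1 CPM, and 37.6 and 74.3 CPM. The PABPC1 libraries were the highest, and PABPC4 library B lay below IgG library B. The fold over IgG in the authors' deposited table was 1.74 for PABPC1 (deposited adjusted p = 0.863) and 1.35 for PABPC4 (deposited adjusted p = 0.969).

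SNHG3 shares 4850 of the 4950 bases of its span with RCC1, the guanine nucleotide exchange factor of Ran. RCC1 had 69 reads with PABPC1, 155 with PABPC4 and 16 in IgG. How reads in shared exons were assigned, and whether strand was used, no source used here states, so the SNHG3 reads are uncertain in that respect. SNORA73B, inside SNHG3, is counted as a gene of its own. It had 6 and 6 reads with PABPC1, 2 and 8 with PABPC4, and 4 and 2 in IgG. The authors' deposited table lists it at 0.826-fold for PABPC1 and 0.231-fold for PABPC4 (deposited adjusted p = 0.0749), so it passed in neither.

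SNHG12 carries the H/ACA snoRNAs SNORA61, SNORA44 and SNORA16A and the C/D snoRNA SNORD99, and spans chr1:28578538-28582983. It had 6 and 10 reads with PABPC1 (20.8 and 36.0 CPM), 39 and 29 with PABPC4 (45.9 and 34.5 CPM), and 0 and 3 in IgG (0 and 31.8 CPM). Both PABPC4 libraries lay above IgG, by little in the case of IgG library B, and the PABPC1 libraries overlapped IgG. The fold in the authors' deposited table was 1.78 for PABPC1 and 2.52 for PABPC4 (deposited adjusted p = 1 and 0.464). With 3 IgG reads the counting interval of the summed ratio with PABPC4 ran from 0.999 to 15.1.

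SNHG8, the host of SNORA24, was the member with the lowest PABPC1 ratio. It had 0 and 3 reads with PABPC1 (0 and 10.8 CPM), 18 and 10 with PABPC4 (21.2 and 11.9 CPM), and 3 and 1 in IgG (22.6 and 10.6 CPM). All its PABPC1 reads came from library B, and each RIP overlapped IgG. In the authors' deposited table the fold was 0.326 for PABPC1 and 0.997 for PABPC4, with a deposited adjusted p of 1 in each. In the limma voom fit its PABPC1 value was -2.53 on the log2 scale (SE 0.89, adjusted p = 0.192).

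SNHG7, the host of SNORA17A and SNORA17B, spans chr9:136724594-136728184. It had 2 and 5 reads with PABPC1 (6.92 and 18.0 CPM), 8 and 10 with PABPC4 (9.41 and 11.9 CPM), and 1 and 1 in IgG (7.52 and 10.6 CPM). The 3 antibodies overlapped. Its deposited folds, from the authors' deposited table, were 1.37 and 1.17.

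Among the hosts of box C/D snoRNAs, GAS5 (chr1:173863901-173869045) carries a row of them in its introns and takes its name, growth arrest specific, from its build-up in arrested cells. It had 10 and 5 reads with PABPC1 (34.6 and 18.0 CPM), 30 and 33 with PABPC4 (35.3 and 39.2 CPM), and 2 and 2 in IgG (15.0 and 21.2 CPM). Both PABPC4 libraries stood above all others, while the PABPC1 libraries fell on either side of IgG library B. The fold in the authors' deposited table was 1.45 for PABPC1 and 2.05 for PABPC4 (deposited adjusted p = 1 and 0.854). GAS5 shares 964 bases of its span with ZBTB37, which had 35, 94 and 9 reads with PABPC1, PABPC4 and IgG.

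SNHG5, the host of SNORD50A and SNORD50B at chr6:85677007-85678733, had the highest ratio in both comparisons. It had 9 and 4 reads with PABPC1 (31.1 and 14.4 CPM), 28 and 16 with PABPC4 (32.9 and 19.02 CPM), and 0 and 1 in IgG (0 and 10.6 CPM). All 4 RIP libraries lay above both IgG libraries. The fold in the authors' deposited table was 4.28 for PABPC1 and 4.88 for PABPC4 (deposited adjusted p = 1 and 0.487). Against 1 IgG read the interval of the summed PABPC4 ratio ran from 1.01 to 238.7, the 1 interval of the 18 against IgG that left out 1. The PABPC4 ratio of the median gene, 1.72, lies inside that interval.

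SNHG1, which carries SNORD22 and the SNORD25 to SNORD31 row at chr11:62851978-62855885, had 2 and 4 reads with PABPC1, 9 and 12 with PABPC4, and 1 and 0 in IgG. The values were 6.92 and 14.4 CPM, 10.6 and 14.3 CPM, and 7.52 and 0 CPM. Its PABPC4 libraries lay above IgG and its PABPC1 libraries overlapped it. The authors' deposited table gave 2.82-fold for PABPC1 and 3.29-fold for PABPC4.

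ZFAS1, which carries the SNORD12 group and starts beside ZNFX1 on the opposite strand, spans chr20:49278178-49289260. It had 2 and 5 reads with PABPC1 (6.92 and 18.0 CPM), 7 and 8 with PABPC4 (8.23 and 9.51 CPM), and 0 and 1 in IgG (0 and 10.6 CPM). Each RIP overlapped IgG. Its folds in the authors' deposited table were 2.34 and 1.67.

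SNHG6, the host of SNORD87, had 5 and 1 reads with PABPC1 (17.3 and 3.60 CPM), 15 and 14 with PABPC4 (17.6 and 16.6 CPM), and 1 and 3 in IgG (7.52 and 31.8 CPM). The IgG libraries held both the highest value and the second lowest. Its folds in the authors' deposited table were 0.531 and 0.871. SNHG6 lies within the span of MCMDC2, which had 1 read with PABPC1, 1 with PABPC4 and 0 in IgG.

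**Figure D2:**
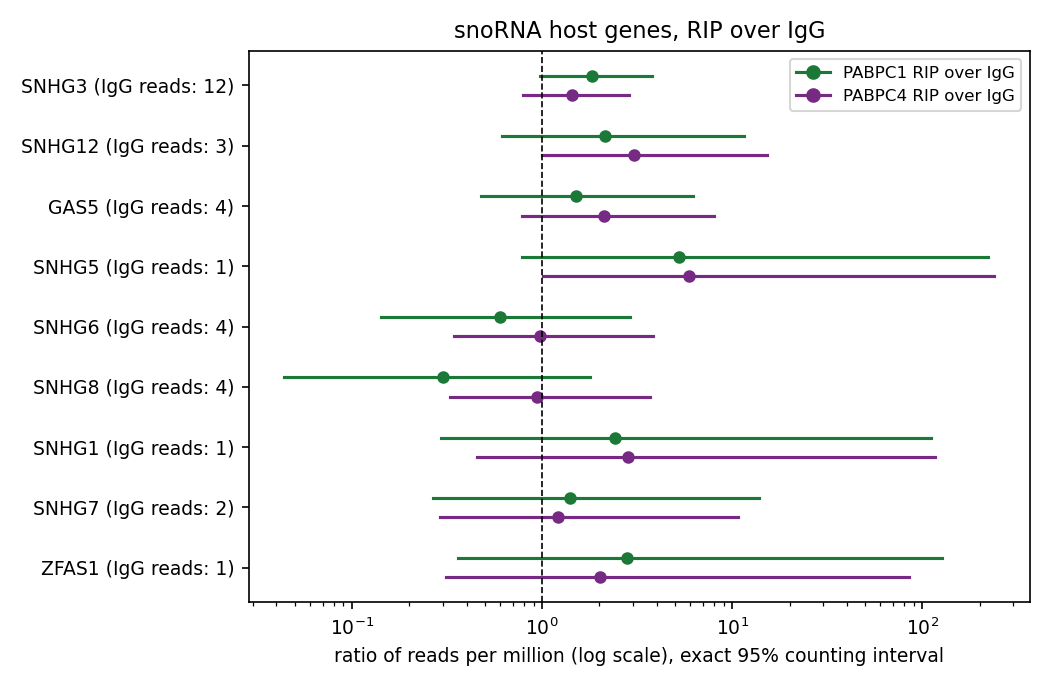
Ratio of CPM from summed reads, RIP over IgG, for the 9 host genes on a log axis, with exact 95% counting intervals and the number of IgG reads beside each name. The dashed line marks a ratio of 1; the intervals are widest where IgG holds 1 read, as for SNHG5, SNHG1 and ZFAS1.

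The snoRNAs themselves were nearly unread. Of 36 snoRNA names listed for the members, 31 were in the tables and 6 had a read: SNORA73B, SNORD99, SNORD12B, SNORD12C, SNORD27 and SNORD78. Apart from SNORA73B, none had an IgG read, and the most was 2 PABPC1 and 5 PABPC4 reads for SNORD99, inside SNHG12. Of SNORD27 and SNORD78 there are 2 genes each by that name in the tables, and which copy was read is not known here. The labels' protocol, random priming with a kit for long RNA, was not one for small RNA.

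Per length, the order of the members could be read in the PABPC4 libraries, the deepest. In RPKM, which is CPM per kilobase of gene length, over the 2 libraries, SNHG3 stood at 18.5, SNHG8 at 17.9, SNHG6 at 13.8, SNHG12 at 11.9, GAS5 at 10.3 and SNHG5 at 9.31. ZFAS1 at 3.95, SNHG1 at 3.31 and SNHG7 at 2.45 formed the lower end. Neighbours from SNHG3 down to SNHG5 overlapped between libraries, as did ZFAS1 and SNHG1. Between SNHG5 and ZFAS1 the libraries did not overlap, with 11.8 and 6.81 RPKM for SNHG5 and 3.67 and 4.24 for ZFAS1. Nor did they between SNHG1 (2.82 and 3.80) and SNHG7 (2.17 and 2.74). That gap rests on 9 and 12 against 8 and 10 reads and leaves out counting error. In IgG the RPKM of SNHG8 (19.1) and SNHG6 (14.1) was above that of SNHG3 (12.9), on 4, 4 and 12 reads. Lengths are those implied by the deposited folds, such as 923 bases for SNHG8 and 4088 for SNHG3. For SNHG5 (2794 against 1727) and SNHG7 (4345 against 3591) the length exceeds the annotated gene span used here. The order per length thus depends on the annotation.

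The third comparison set PABPC4 directly against PABPC1 for the same RNAs. SNHG3 was the 1 member called, lower with PABPC4 relative to the median gene. As given above, RCC1 shares 4850 of the 4950 bases of its span, and how shared reads were assigned is not known. RCC1 had 69 reads with PABPC1 and 155 with PABPC4, where SNHG3 had 55 and 128. The part of RCC1 in the call was not tested. The limma voom fit gave SNHG3 -0.82 on the log2 scale (SE 0.25, 95% interval -1.32 to -0.32), 0.566-fold, with an adjusted p of 0.0458 over 7965 genes. Of those genes 2.08% were called lower and 2.42% higher; 6 members were fitted, and SNHG1, SNHG7 and ZFAS1 had too few reads. Both PABPC4 libraries lay below both PABPC1 libraries for SNHG3, which held for 8.81% of the 16132 genes with a PABPC1 read. On the scale of library totals the value was 0.770-fold with an adjusted p of 0.338 by limma voom, and the ratio of summed reads was 0.780 (counting interval 0.564 to 1.09). Without PABPC1 library A the fold was 0.569 (limma voom adjusted p = 0.704) and without PABPC1 library B it was 0.563 (limma voom adjusted p = 0.64), so the call was lost while the fold hardly moved. Each of these fits has 1 PABPC1 library, assumed to vary like the other groups, and called 10 of 7959 and 11 of 7952 genes lower, against 166 with all libraries. Over all alternatives the fold stayed between 0.524 and 0.78 and the adjusted p ran from 0.00807 to 0.807.

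Per 1000000 nuclear reads, SNHG3 stood at 171 and 168 with PABPC1, 101 and 88.7 with PABPC4, and 94.4 and 177 in IgG. On this scale too both PABPC4 libraries were below both PABPC1 libraries, and IgG spanned both.

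The other 5 fitted members did not pass. SNHG8 had the largest fitted value, 1.38 on the log2 scale (SE 0.73, 95% interval -0.10 to 2.85, limma voom adjusted p = 0.353), with both PABPC4 libraries above both PABPC1 libraries in CPM. GAS5 was the other member with that order, which held for 33.8% of genes with a PABPC1 read. The fitted log2 values were 0.06 for GAS5 (95% interval -0.76 to 0.89), 0.02 for SNHG12 (-0.85 to 0.88), 0.37 for SNHG6 (-0.88 to 1.62) and -0.28 for SNHG5 (-1.26 to 0.70). These intervals do not show that the RIPs held equal amounts. For the members outside the fit, the ratio of summed reads was 1.17 for SNHG1 (0.458 to 3.55), 0.862 for SNHG7 (0.343 to 2.44) and 0.718 for ZFAS1 (0.276 to 2.08). Summed over the members, on library totals, the ratio was 1.08 (0.887 to 1.33), and without SNHG3 it was 1.31 (1.01 to 1.72). On that scale the median gene with reads in all 3 groups stood at 1.34, not at 1.

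**Figure D3:**
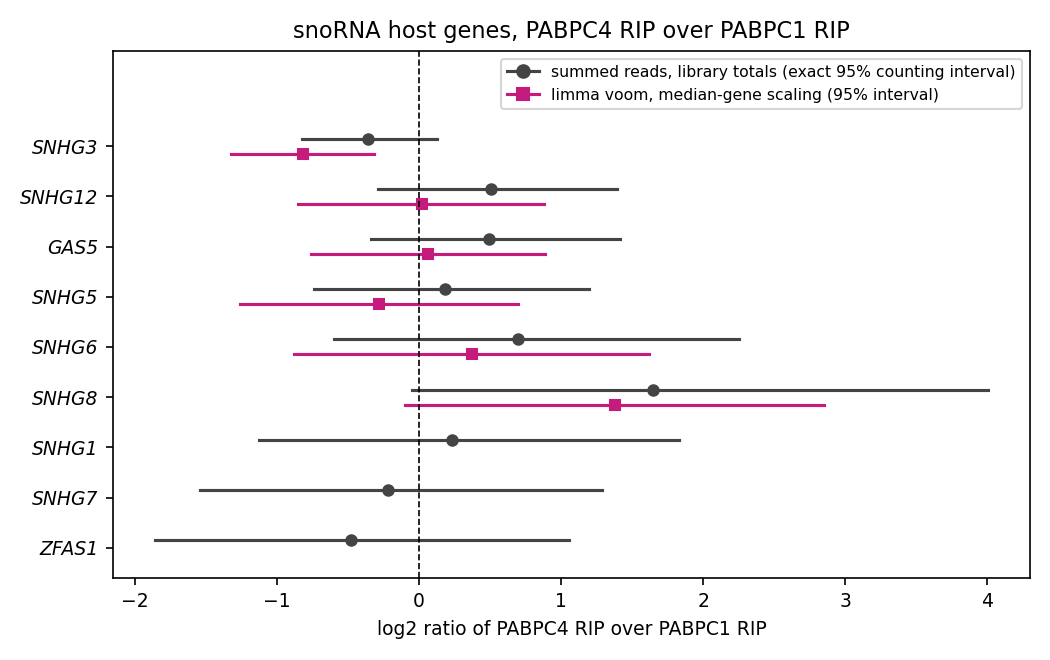
log2 ratio of PABPC4 RIP over PABPC1 RIP for the 9 host genes: dark circles from summed reads and library totals with exact 95% counting intervals, pink squares from limma voom with 95% intervals for the 6 fitted members. Only the voom interval of SNHG3 lies wholly on 1 side of 0.

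Library totals and the median gene give different zero points. On library totals the median gene with reads in all 3 groups (10674 genes) stood at 1.23-fold with PABPC1 over IgG, 1.72-fold with PABPC4 over IgG and 1.34-fold for PABPC4 over PABPC1. The members' medians were 1.84, 2.02 and 1.17. Among the 9134 genes with 1 to 12 IgG reads, as the members had, the medians were 1.20, 1.68 and 1.32. On summed reads and library totals the medians of the 9 members against IgG were thus above those of genes in general, and that of PABPC4 over PABPC1 below. In the limma voom fit of 6 members the last 2 of these orders turned. There the members' median log2 value was 0.21 with PABPC1 over IgG against 0.06 for all fitted genes, -0.20 against 0.07 with PABPC4 over IgG, and 0.04 against 0.00 for PABPC4 over PABPC1. Without IgG library A the members' median log2 ratio over IgG went from 0.88 to 0.22 with PABPC1 and from 1.01 to 0.34 with PABPC4; without PABPC1 library B that of PABPC4 over PABPC1 went from 0.04 in the limma voom fit to -0.53.

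Other non-coding snoRNA hosts were not called either. Of 21 such genes found in the tables, such as DANCR, SNHG16 and SNHG14, 17 had a read. The authors' deposited tables called 0 of 16 tested with PABPC1 and 0 of 17 tested with PABPC4, against the 1.34% and 5.54% of all genes listed higher given above. At an unadjusted p under 0.05 the authors' deposited tables hold 0 of them with PABPC1 and 2 with PABPC4, C6orf48 and SNHG14, both higher. The 11 with reads in all groups had medians of 1.56 with PABPC1 and 1.75 with PABPC4. Protein-coding genes that host snoRNAs were read far more deeply, with medians of 1.28 and 1.70. Of the 48 coding hosts, 7 were listed higher in the authors' deposited table with PABPC1 and 22 with PABPC4, and 0 lower in either. Of all genes, 1.34% and 5.54% were listed higher. With the adjustment run over genes with at least 10 reads in RIP and IgG, 323 of 2139 were higher with PABPC1. With PABPC4 this held for 1098 of 2153. The part of read depth in the counts of coding and non-coding hosts was not tested. The 4 coding hosts with the smallest adjusted p for PABPC4 were NCL, which encodes the nucleolar protein nucleolin, RPL5 and RPL4 of the large ribosomal subunit, and the mitochondrial chaperone HSPA9. In the authors' deposited table NCL stood at 1.15-fold with PABPC1 and 3.16-fold with PABPC4, RPL5 at 2.56 and 3.03, HSPA9 at 2.67 and 4.53, and RPL4 at 1.34 and 1.68, all of them called. NCL had 664 IgG reads, against 1 to 12 for the host genes above.

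The proteins that work with snoRNAs or with the decay of their host RNAs were also counted. Beside each count stand the 1.34% (PABPC1) and 5.54% (PABPC4) of all genes listed higher. The larger shares among genes with at least 10 reads, given above, also stand beside them. Of 13 mRNAs for snoRNP proteins and their assembly factors, 1 was listed higher with PABPC1 and 5 with PABPC4 in the authors' deposited table. NOP58, a core protein of box C/D snoRNPs, stood at 2.93-fold and 6.22-fold in the authors' deposited table, called in both, and DKC1, the pseudouridine synthase of H/ACA snoRNPs, at 2.54-fold (not called) and 3.29-fold (called). Of 21 mRNAs for nonsense-mediated decay and exon junction factors, 0 were listed higher with PABPC1 and 5 with PABPC4 in the authors' deposited table. At an unadjusted p under 0.05 in the authors' deposited table, 3 were higher with PABPC1 and 11 with PABPC4, and 0 lower in either. With PABPC4 UPF2 (4.24-fold) had the smallest adjusted p, and UPF3B stood at 8.01-fold on 3 IgG reads. Of 11 mRNAs that are known targets of that decay, 1 and 4 were listed higher in the authors' deposited table, ATF4 in both. Of 10 mRNAs for proteins that act on TOP mRNAs, 1 was called in each comparison of the authors' deposited table, CNBP, at 14.2-fold and 6.86-fold.

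Ribosomal protein mRNAs, which share the TOP start, had medians of 1.23 with PABPC1 and 1.59 with PABPC4 over 77 genes, with 9 and 25 of 79 listed higher in the authors' deposited table. Of the other long non-coding RNAs, 5 of 15 tested with PABPC1 and 5 of 16 with PABPC4 were listed higher, among them MALAT1 and NORAD in both of the authors' deposited tables. The differences between these lists and the host genes were not tested.

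**Figure D4:**
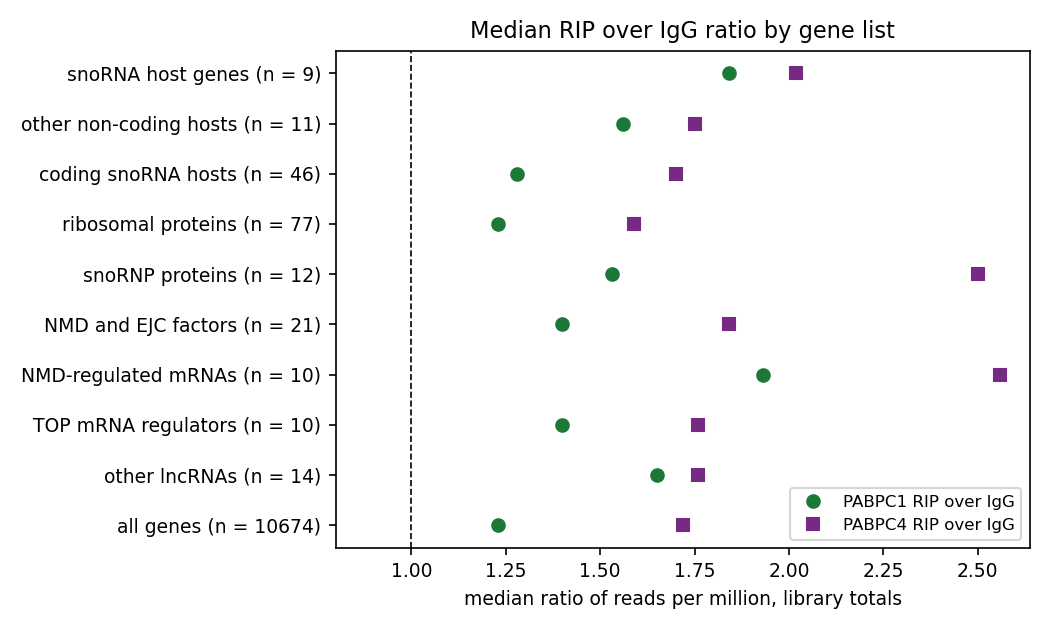
Median ratio of CPM from summed reads, RIP over IgG, for the host genes and for lists of related genes; n is the number of genes with reads in all 3 groups. The host genes stand at 1.84 (PABPC1, circles) and 2.02 (PABPC4, squares), and all genes at 1.23 and 1.72.

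By the Euclidean distance between pairs of log2 ratios over IgG, the genes most like the summed members (0.68 and 0.80) were RPL9, CTSB, PTGES3, HNRNPA1 and RPL14. They were sought among 1853 genes with at least 200 reads over 6 libraries, and their distances were 0.012 to 0.04. RPL9, for example, had 48, 154 and 12 reads with PABPC1, PABPC4 and IgG. Of the 1853 genes, 102 lay within 0.2, so the members' position was a common one. In bulk libraries such as these, fewer cells with a transcript and less RNA per cell cannot be told apart, and neither can binding and the level of the RNA in the lysate, since no input library was used here.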

How the data were processed

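RIP-seq libraries of HepG2 were described by 2 tables. The authors deposited, per the file headers, a linear fold (a ratio of RIP over IgG), a p-value and a Benjamini-Hochberg adjusted p for each gene; 0 further columns held single libraries. STAR 2.7.10a, Bowtie2 2.4.1 and featureCounts 2.0.1 appear in the submitters' processing notes, with hg38 and GRCh38 as builds; the role of each and the use of strand are not given in the sources used here. The deposited p-values match a Yates-corrected chi-square test of summed reads, with a largest absolute log ratio of 1.5e-13, and so cover counting error only. The deposited folds equal a ratio of mean RPKM with 0.005 added to IgG.

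Whole reads per library were solved from these values for 17825 of 22607 genes with a read, including the 9 members with reads. By number, the rest were mostly genes with a few PABPC4 reads, but they included the mitochondrial rRNAs. The 18303 genes with recovered summed reads held 100939 of the 227265 IgG reads. They held 348679 of the 566769 PABPC1 reads and 1407812 of the 1691517 PABPC4 reads. The recovery was tested on simulated data. Calls against IgG are the deposited adjusted p under 0.05. PABPC4 against PABPC1 was fitted with limma 3.58.1 (voom) in R 4.3.3 over 7965 genes that reached 10 reads in 2 or more libraries, with median-of-ratios scaling, 3 groups and 3 residual degrees of freedom. Exact 95% intervals (scipy 1.17.1) are conditional on summed reads, and limits for a count of 0 use 3 reads; both cover counting error only. Reads were not corrected for duplicates here. Scaling, filter, test, prior count and left-out libraries were varied.

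The members, gene lists, tests and the rule for named genes (all members, up to 4 leading called genes a list, snoRNAs with a read, 5 nearest genes) were chosen with earlier results of these data known. Of the lists, the text names genes where a comparison with the members turns on them.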

Additional observations from a re-analysis of the deposited data

How the results depend on the processing

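Against IgG, 0 members were called under any alternative run, with PABPC1 or PABPC4: nuclear totals, median of ratios, Fisher's exact test, limma voom, a minimum of 10 reads, and leave-one-out. Against PABPC1, the 1 call (SNHG3) became 0 calls with library totals, the upper quartile and a filter of at least 1 read. The call was also lost with limma trend at a prior count of 0.5 or of 2, the chi-square test, and without PABPC1 library A or B. Over all genes these fits differed widely in what they called lower: 166 of 7965 in the fit reported, 54 with library totals, 148 with the upper quartile, 175 of 16634 with the filter of at least 1 read, 20 and 53 with limma trend, 84 of 22607 with the chi-square test, and 10 and 11 without a PABPC1 library. With the upper quartile the fold of SNHG3 was 0.566 (limma voom adjusted p = 0.0583), and with library totals it was 0.77. Why each fit lost the call was not tested. The call stayed with nuclear totals, a filter of at least 20 reads and the 4 RIP libraries alone. It also stayed with a PABPC4 or an IgG library left out, at 0.524-fold to 0.611-fold. A fit with 1 library left in a group assumes that it varies like the other groups. The members' median log2 fold was 0.88 for PABPC1 over IgG, and 0.39 with nuclear totals, 0.49 with median of ratios, 0.21 with limma voom over 6 members, and 0.22 to 1.03 when a library was left out. For PABPC4 over IgG it was 1.01, and 0.04, 0.18 and -0.20 under the same settings, and 0.34 to 1.19 with a library left out. For PABPC4 over PABPC1 it was 0.04, and 0.48 with library totals, -0.28 with the filter of at least 1 read, -0.17 with a prior count of 2, 0.23 with the chi-square test over 9 members, and -0.53 to 0.15 with a library left out. With a minimum of 10 reads in RIP and IgG 1 member was left, so no median was taken.

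Folds of single members, none called, crossed 1 as follows; the cause was not tested. PABPC1 over IgG: SNHG7 was 0.999 with nuclear totals and GAS5 0.926 with limma voom, and with a library left out SNHG7 ran from 0.786 to 2.05, SNHG12 from 0.887 to 2.73 and SNHG6 from 0.205 to 1.41. PABPC4 over IgG: SNHG3 was 0.731, 0.807 and 0.781 and SNHG7 0.617 and 0.681 with nuclear totals, median of ratios and, for SNHG3, limma voom, GAS5 was 0.966 with limma voom, and with a library left out SNHG6 ran from 0.539 to 2.28 (1 without PABPC4 library B), SNHG8 from 0.675 to 1.56 and ZFAS1 from 0.836 to 2.16. PABPC4 over PABPC1: SNHG5 was 1.1 with library totals and 1.13 with chi-square, SNHG12 0.988 with nuclear totals, and SNHG6, SNHG12 and GAS5 were 0.886, 0.896 and 0.899 with a prior count of 2. With a library left out SNHG5 ran from 0.549 to 1.21, SNHG12 from 0.819 to 1.26, SNHG6 from 0.656 to 2.52 and GAS5 from 0.732 to 1.47 in that comparison. No paired analysis was possible because the recovered libraries could not be tied to the replicate numbers of the labels. The 1 to 4 IgG reads of all members but SNHG3 limit both comparisons with IgG.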
